A study of Drosophila melanogaster with 3 samples.

Results

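The genes described here are ush, its nested neighbour cbt and the GATA factor genes pnr, srp, grn, GATAd and GATAe of Drosophila melanogaster, 7 of 13945 protein-coding genes on the chromosome arms. They were chosen by the binding values themselves, after a very strong peak had been seen at ush beside cbt, so the peak counts and signal values below describe these loci and are not tested. Every region was taken whose summit lay inside a gene or within 2 kb of it, which gave 23 of the 6410 peaks that the authors kept as reproducible by the irreproducible discovery rate (the IDR list) and 79 of the 29999 regions in the relaxed list of the pooled libraries. Binding was that of Pif1B tagged at its C-terminal end with green fluorescent protein (eGFP), mapped by ChIP-seq (immunoprecipitation of chromatin, here with an antibody against the tag, and sequencing of the DNA recovered) in whole pupae of a transgenic line. A single group was studied, with 3 biological replicates that each pooled males and females of unknown age, and no wild-type, other stage or other tag was compared. All animals carried the tagged transgene, the labels do not say which cells expressed it, and the fusion protein was mapped rather than the native one. Whole animals were used, so a peak cannot be assigned to a tissue. The peak lists do not give sequencing depth, and the signal value of a region is the authors' own number, used here to rank regions within a list.

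GATA factors are zinc finger proteins that bind DNA at GATA-containing sites. In the fly, Pnr patterns the dorsal thorax and the heart, Srp directs the formation of blood cells, fat body and endoderm, GATAe acts in the gut, and Grn acts in appendages and in axon guidance. Ush is the fly member of the Friend of GATA family, which binds GATA factors through its zinc fingers and changes what they do to their target genes. Cbt is a zinc finger protein of the Krüppel-like family, with known roles in dorsal closure and in the transcriptional response to sugar.

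The sequences below show the summits that the description turns on. They cover 201 bases centred on a summit, on the plus strand of dm6, read from the RefSeq release of that assembly. Capitals mark GATA motifs (the letters GATA with A or T before them and A or G after them, on either strand) and the palindrome CACGTG. The first is the strongest IDR peak of the members, in an intron of ush (chr2L:480955-481155). It holds no motif of either kind.
ush intron, strongest peak: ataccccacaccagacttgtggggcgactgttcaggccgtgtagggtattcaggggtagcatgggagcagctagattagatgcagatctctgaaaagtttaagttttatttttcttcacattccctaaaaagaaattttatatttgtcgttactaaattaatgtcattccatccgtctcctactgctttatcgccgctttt
The second is the strongest peak near the cbt start (chr2L:479930-480130), which lies in the same ush intron, and it has 1 CACGTG.
cbt start: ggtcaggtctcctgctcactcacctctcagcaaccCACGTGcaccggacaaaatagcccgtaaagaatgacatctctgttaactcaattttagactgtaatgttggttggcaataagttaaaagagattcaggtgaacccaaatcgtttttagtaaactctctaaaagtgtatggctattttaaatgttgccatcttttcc
The third is the first ush peak downstream of a wide stretch without IDR peaks (chr2L:510616-510816), chosen after its values were seen. It carries a GATA motif and an unbroken run of alternating C and T of 22 bases.
ush intron, distal peak: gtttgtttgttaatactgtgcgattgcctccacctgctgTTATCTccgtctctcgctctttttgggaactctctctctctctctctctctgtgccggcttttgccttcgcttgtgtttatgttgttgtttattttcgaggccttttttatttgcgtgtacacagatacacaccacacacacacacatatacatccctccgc
The last 3 are the strongest IDR peaks of srp (chr3R:15984630-15984830), grn (chr3R:8154047-8154247) and GATAd (chr2L:10335060-10335260), shown for the contrast in motif content between GATA genes. The srp window has 2 GATA motifs, the GATAd window has 1 and the grn window has none.
srp upstream: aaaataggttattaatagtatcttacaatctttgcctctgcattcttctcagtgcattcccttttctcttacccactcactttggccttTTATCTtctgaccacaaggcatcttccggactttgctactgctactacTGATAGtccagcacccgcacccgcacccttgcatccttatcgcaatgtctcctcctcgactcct
grn intron: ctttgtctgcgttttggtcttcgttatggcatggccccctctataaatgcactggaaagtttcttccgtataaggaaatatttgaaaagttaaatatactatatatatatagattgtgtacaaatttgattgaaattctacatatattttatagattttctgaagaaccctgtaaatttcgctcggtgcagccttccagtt
GATAd intron: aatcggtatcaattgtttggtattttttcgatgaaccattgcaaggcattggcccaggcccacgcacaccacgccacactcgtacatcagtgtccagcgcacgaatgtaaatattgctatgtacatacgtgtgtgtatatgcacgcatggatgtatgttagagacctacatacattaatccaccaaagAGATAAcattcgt

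Within this set of 7 genes, IDR peaks were denser at ush and cbt than at the GATA factor genes. The ush gene (FBgn0003963, 2L, plus strand, 476220 to 540560, dm6) held 18 IDR summits, all inside the gene, or 0.263 per kb of the gene with its flanks. The cbt gene (FBgn0043364, 2L, minus strand, 476446 to 479688) lies inside the first intron of the longest ush transcripts, and its window held 3 of those same 18 summits, or 0.414 per kb. The 5 GATA factor genes held 5 IDR summits in all, 2 at grn and 1 each at pnr, srp and GATAd, and none at GATAe. Thus 6 of the 7 genes had an IDR summit, where 29.8% of all protein-coding genes did, 48.8% of those of 5 to 20 kb and 65.9% of those of 20 kb or more. Of these genes, ush and grn are longer than 20 kb, pnr, srp, GATAe and GATAd are of 5 to 20 kb, and cbt is shorter. The members were chosen with these peaks known, and nothing is read from that count.

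Among the members, the number of summits per kb of gene and flanks placed cbt first, then ush, GATAd (0.106), grn (0.0525), pnr (0.0507), srp (0.0456) and GATAe (0). The same measure was taken in each replicate from its 6410 strongest regions, a number equal to the length of the IDR list. For cbt it was 0.414, 0.414 and 0.552 in replicates 1, 2 and 3 (0.460 ± 0.0797, SD, n = 3). For ush it was 0.205, 0.190 and 0.249 (0.215 ± 0.0305), so each replicate of ush lay below all of those of cbt, although the summits beside cbt count for both genes. The distance between cbt and ush depends on the flanks, since only 1 of the 3 cbt summits in the IDR list lay inside cbt. Without flanks the IDR list gave 0.308 per kb for cbt and 0.280 for ush. GATAd had 0.106, 0 and 0.106 in the 3 replicates, and no replicate of it reached the lowest of ush. The values of GATAd, grn, pnr and srp overlapped one another across replicates, so their order does not hold beyond the spread. GATAe had 0 in every replicate, as pnr did in replicate 3, srp in replicate 2 and GATAd in replicate 2, whereas grn had 0.0263, 0.0525 and 0.0525.

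**Figure D1:**
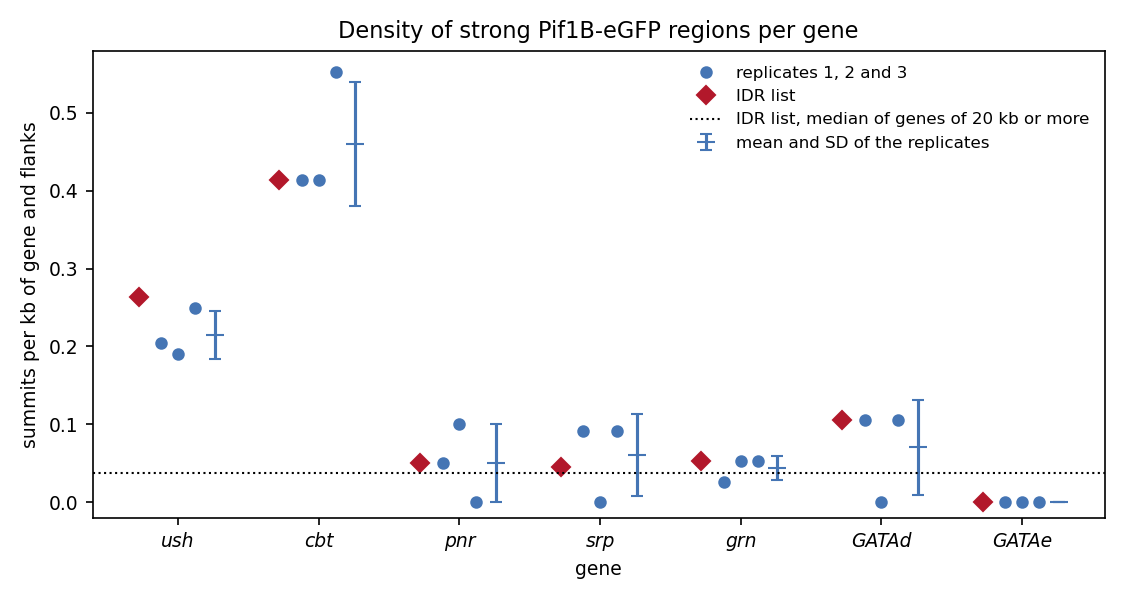
Summits per kb of gene and 2 kb flanks (vertical axis) for the 7 genes, from the IDR list (diamonds) and from the 6410 strongest regions of each replicate (points, with mean and SD, n = 3). The replicates of ush lie between 0.190 and 0.249 and those of cbt between 0.414 and 0.552, while GATAe is at 0 in each and the dotted line, the median of genes of 20 kb or more, is at 0.0370.

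The ush locus was dense for a long gene but not at the extreme of the genome. The median over the 1013 protein-coding genes of 20 kb or more was 0.0370 IDR summits per kb with a 90th percentile of 0.159, and 17 of those genes had more per kb than ush. Over genes of any length, 724 had more per kb than ush and 216 more than cbt. For the GATA factor genes it was 3114 above GATAd, 3851 above grn, 3873 above pnr, 3917 above srp and 4155 above GATAe. The long gene grn, at 0.0525 per kb, was above the median of 0.0370. By number of summits, 7 genes had more than ush. They were Eip75B (19), a nuclear receptor of the ecdysone response, shn (19), a zinc finger protein of Dpp signalling, CG43658 (20), CG1677 (21), Tet (22), an enzyme of the TET family, sbb (25) and kirre (29), an adhesion protein of myoblast fusion.

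The genes most like ush were taken from 567 protein-coding genes whose span was 0.5 to 2 times that of ush, by the closest number of IDR summits per kb. They were Shrm (0.252, 12 summits), the regulator of chromatin tou (0.282, 12), the Wnt inhibitor nkd (0.241, 11), the receptor Egfr (0.241, 10) and the translational repressor brat (0.240, 12). The median of the 567 genes was 0.0371 per kb, and 5 of them were above ush. This likeness concerns only the number of summits per kb in the IDR list.

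Within ush the strongest peaks sat at one end, where cbt lies. The gene has 4 annotated starts and 5 transcripts, and the stretch between the most distal start and the second start (476220 to 490834, 14.6 kb) held 8 IDR summits, or 0.547 per kb, with a median signal value of 340 and a maximum of 1628. The 3 summits of the cbt window, with signal values of 579, 623 and 1628, are among these 8. The other 5 had 161, 316, 90.6, 110 and 364. When the nearest annotated start decided between the members, ush had 14 summits in the whole gene and cbt 4. The next stretch, up to the third start (490835 to 523465, 32.6 kb), held 7 summits, or 0.215 per kb, with a median of 138 and none above 238. From the third start to the second exon that all transcripts share (523466 to 536022, 12.6 kb), there were 3 summits with a median of 91.7 and a maximum of 199. The last 4.54 kb of the gene and the 2 kb on either side of it held no IDR summit and no relaxed one.

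The replicates kept this arrangement. Among the 6410 strongest regions of replicates 1, 2 and 3, the stretch next to the distal start had 7, 7 and 8 summits, the middle stretch 5, 5 and 6, and the third stretch 2, 1 and 3. In total ush had 14, 13 and 17 such summits (14.7 ± 2.08, SD, n = 3). In the whole relaxed lists it had 40, 31 and 47 (39.3 ± 8.02), so replicate 2 was lowest and replicate 3 highest on both counts.

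**Figure D2:**
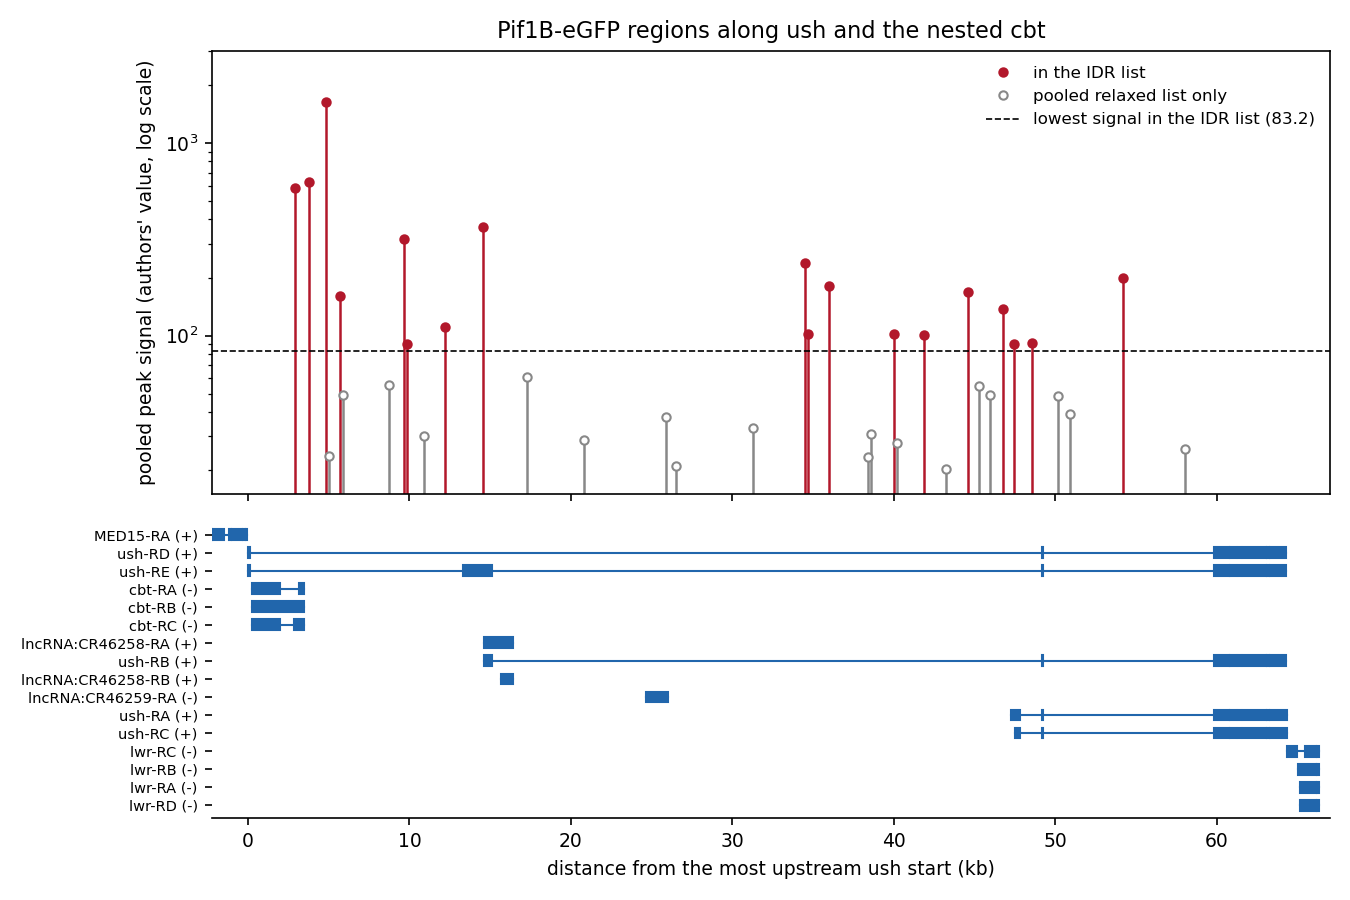
Signal value of pooled regions (log scale) against distance from the most upstream ush start in kb, with the annotated transcripts below. Filled points are the 18 IDR peaks and open points the 18 other relaxed summits; the strongest peaks lie in the first 14.6 kb around cbt, and the stretch of 19959 bp between summits 490757 and 510716 has open points only.

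The 3 summits in the cbt window were the strongest of all 23, and no other member peak was above 364. The peak at 480895 to 481336 had a signal value of 1628 and lay 1367 bp upstream of the only cbt start, in the ush intron. The authors' values for the strongest overlapping region put it at rank 15, 5 and 6 in replicates 1, 2 and 3 (rank 1 is the strongest of about 30000), so it was near the top of each list. The peak at 479906 to 480226 had a signal value of 623, its summit 342 bp upstream of the cbt start, and ranked 107, 142 and 184. The peak at 479036 to 479311 had a signal value of 579 with its summit in an exon of cbt, 546 bp downstream of the start.

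That exonic peak differed most between libraries among these 3. Its rank was 113 in replicate 1, 88 in replicate 3 and 1904 in replicate 2, and it was still among the 6410 strongest regions of each. The summits of the 3 peaks were 888 and 1025 bp apart. In the relaxed list of the pooled libraries the cbt window had 4 summits, of which 75.0% were in the IDR list, where 21.4% of all pooled relaxed regions were. At ush 18 of 36 summits were in it, and at the GATA genes it was 33.3% of 3 for GATAd, 11.1% of 18 for grn, 11.1% of 9 each for pnr and srp, and 0% of 4 for GATAe.

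Further into ush, 5 more IDR peaks lay before or at the second ush start. A peak at 481706 to 482135 had a signal value of 161 and ranked 2631, 2898 and 2479 in the 3 replicates. A peak at 485786 to 485956 had a signal value of 316 and ranked 661, 655 and 1582. It overlapped a second, weaker peak (485866 to 486295, 90.6). Both were matched to the same strongest region in each replicate, so their replicate ranks are not independent. The regions with the summit nearest to that of the weaker peak ranked 7755, 7079 and 8186, outside the 6410 strongest. A peak at 488236 to 488665 had a signal value of 110 and ranked 6355, 4898 and 3367, close to the end of the 6410 strongest in replicate 1. In that replicate the region with the nearest summit ranked 11289, outside the 6410 strongest.

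The peak at the second start was the strongest of ush outside the cbt window. It covered 490661 to 490843 with a signal value of 364, and its summit lay 78 bp from the start that the ush-RB transcript shares with the noncoding RNA lncRNA:CR46258, inside an exon of the longer transcript ush-RE. It ranked 390, 1432 and 596 in replicates 1, 2 and 3. Since ush and the noncoding RNA share this start and strand, the peak cannot be assigned to one of them.

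A long stretch without an IDR summit followed, to the next summit 19959 bp away, with 5 relaxed summits of signal values 21.2 to 60.7. It was the widest of the 17 gaps between neighbouring ush summits, which ranged from 200 to 19959 bp with a median of 1891. The next peak, at 510501 to 510930, had a signal value of 238 and ranked 1086, 2123 and 1334. It is the distal peak whose sequence is shown above, and it overlapped a weaker peak (510701 to 511130, 102) with the same replicate regions.

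The remaining intronic peaks before the third start had signal values of 180 or less. Signal values were 180 at 512017 to 512446, 102 at 516010 to 516439, 100 at 517901 to 518330 and 168 at 520603 to 521032. The peaks of 180 and 168 were among the 6410 strongest regions of all 3 replicates, with ranks of 2052 to 4253 and 2272 to 2954. The peak of 102 ranked 7164, 2923 and 7245, so only replicate 2 placed it there, and the peak of 100 ranked 6941, 5009 and 6151, which left replicate 1 just outside.

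At the third and most downstream starts, used by the shorter ush transcripts, replicate 2 stood lowest. The peak at 522760 to 523189 (signal value 138, 491 bp from the third start) ranked 3018, 6630 and 2609 in replicates 1, 2 and 3. The peak at 523466 to 523895 (90.4, 55 bp from the most downstream start, in an exon) ranked 8024, 27550 and 3939. A peak 1049 bp further into the gene (524570 to 524999, 91.7) ranked 5768, 17404 and 3167. The last peak of the gene, at 530214 to 530643, had a signal value of 199 and ranked 2259, 2493 and 1572, with all 3 replicates close to one another.

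The 5 GATA factor genes had IDR peaks with signal values of 210, 164, 115, 96.9 and 95.0, where the median over all IDR peaks was 137. Their strongest IDR peak lay in an intron of grn (FBgn0001138, 3R, minus strand, 8147368 to 8181444), at 8154059 to 8154271, with a signal value of 210. It ranked 1725, 1950 and 1675 in replicates 1, 2 and 3, and it was the only IDR peak of the 5 genes among the strongest 6410 regions of every replicate. It lay 27297 bp from the grn start. A second grn peak, at 8171440 to 8171869 (96.9, intron), ranked 12523, 3915 and 4926, with replicate 1 far behind the others.

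The peak of GATAd (FBgn0032223, 2L, plus strand, 10333734 to 10339185) at 10334945 to 10335374 had a signal value of 164 and lay in an intron 1246 bp from the nearest GATAd start. It ranked 1015, 11612 and 2959 in the 3 replicates. Replicate 2 again stood lowest, and its position there was outside the 6410 strongest regions.

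Neither srp nor pnr had an IDR summit inside the gene. The peak of srp (FBgn0003507, 3R, plus strand, 15986152 to 16004085) lay 1422 bp upstream of its first start, at 15984515 to 15984944, with a signal value of 115 and ranks of 4309, 7421 and 3236. The peak counted for pnr (FBgn0003117, 3R, plus strand, 16026079 to 16041796) lay past the end of the gene, at 16042072 to 16042501, with a signal value of 95.0 and ranks of 6108, 3553 and 9781. Its nearest start, 1211 bp away, is that of Jhbp4, so its assignment to pnr rests on distance alone.

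The genes srp, GATAe (FBgn0038391, 3R, plus strand, 16009105 to 16019133) and pnr lie near one another on the same strand. From the start of srp to the end of pnr, 55.6 kb held 19 relaxed summits and no IDR summit. Replicates 1, 2 and 3 had 1, 0 and 1 summits among their 6410 strongest regions there. With 2 kb added on both sides, the 59.6 kb held 2 IDR summits, or 0.0335 per kb, close to the median of 0.0370 over single genes of 20 kb or more.

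Weaker regions were present at each GATA gene. No density of relaxed regions over all genes is given here, so nothing is read from their presence. The best region of GATAe, 326 bp from its nearest start, had a signal value of 57.6 and ranked 9844 in the pooled list. Its best regions ranked 10451, 9972 and 17303 in replicates 1, 2 and 3, all below the 6410 strongest. A region of 58.4 lay 152 bp from a pnr start. At srp the strongest region that overlapped no IDR peak had a signal value of 70.2 and was exonic, at grn 65.6 and intronic, and at GATAd 57.1, which lay 55 bp from the start of the neighbouring gene SamDC.

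**Figure D3:**
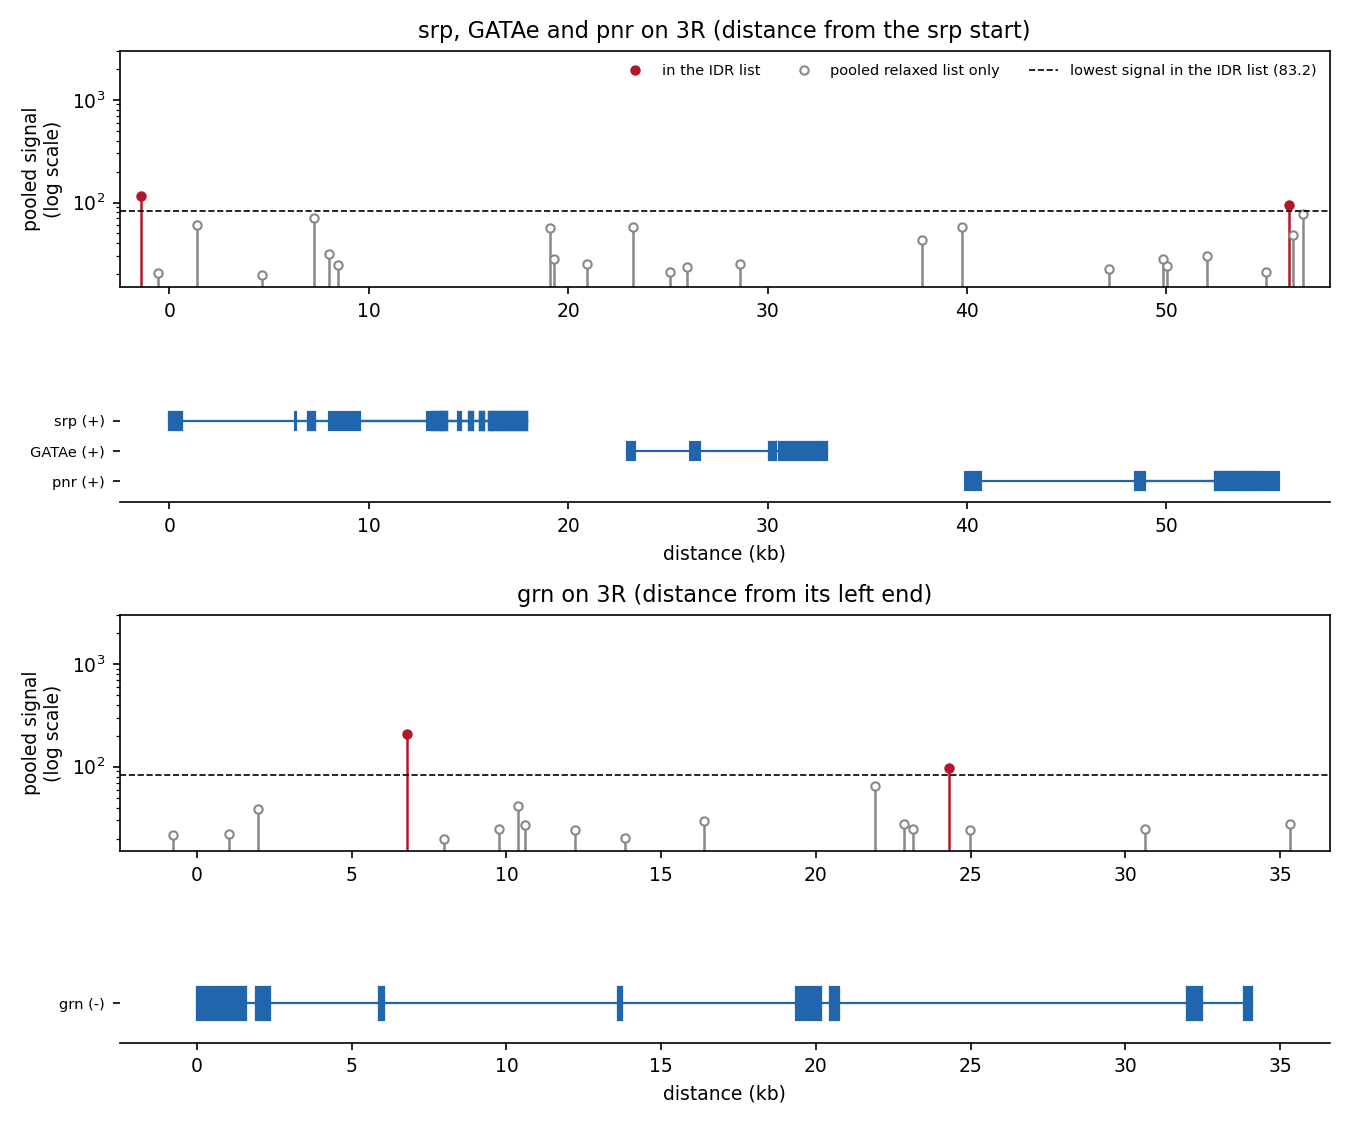
Signal value of pooled regions (log scale) against distance in kb along srp, GATAe and pnr (upper panels) and along grn (lower panels), with exons drawn as blocks and the strand beside the gene name. Filled points are IDR peaks and open points weaker relaxed regions; the filled points of the upper panels, at 115 and 95.0, lie outside the genes, and the strongest one of grn is at 210.

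The threshold of the IDR list separated the members' regions as follows. The weakest member peak in the list was the one of 90.4 near the most downstream ush start, and the strongest outside it was a region of 76.5, 487 bp from the start of Jhbp4 downstream of pnr. The lowest signal value in the whole IDR list was 83.2. In all, 52 of the 79 relaxed regions of the members overlapped no IDR peak, 15 of them at ush, with signal values of 20.3 to 60.7 there. Of the 29999 regions in the whole pooled list, 22032 on the chromosome arms overlapped none.

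The replicates put the 23 peaks in a similar order. Spearman correlations of the ranks were 0.76 for replicates 1 and 2, 0.91 for replicates 1 and 3 and 0.77 for replicates 2 and 3, over 23 peaks of which 2 pairs share replicate regions. These are descriptions across peaks of the same libraries. The peaks were kept as reproducible in those libraries, so some agreement was selected for, and the correlations do not measure reproducibility. All 3 replicates supported 14 of the 23 peaks, that is, had an overlapping region among their 6410 strongest, and 2 replicates supported 7 and 1 replicate 2. Over the whole IDR list 65.6% were supported by all 3. Replicates 1, 2 and 3 supported 19, 18 and 21 of the members' peaks, against 85.1%, 81.7% and 86.2% of all IDR peaks. The members' median ranks in these replicates were 2259, 2923 and 2272. With stricter matching, by summits within 100 bp or by more of the interval overlapped, all 3 replicates supported 11 peaks.

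**Figure D4:**
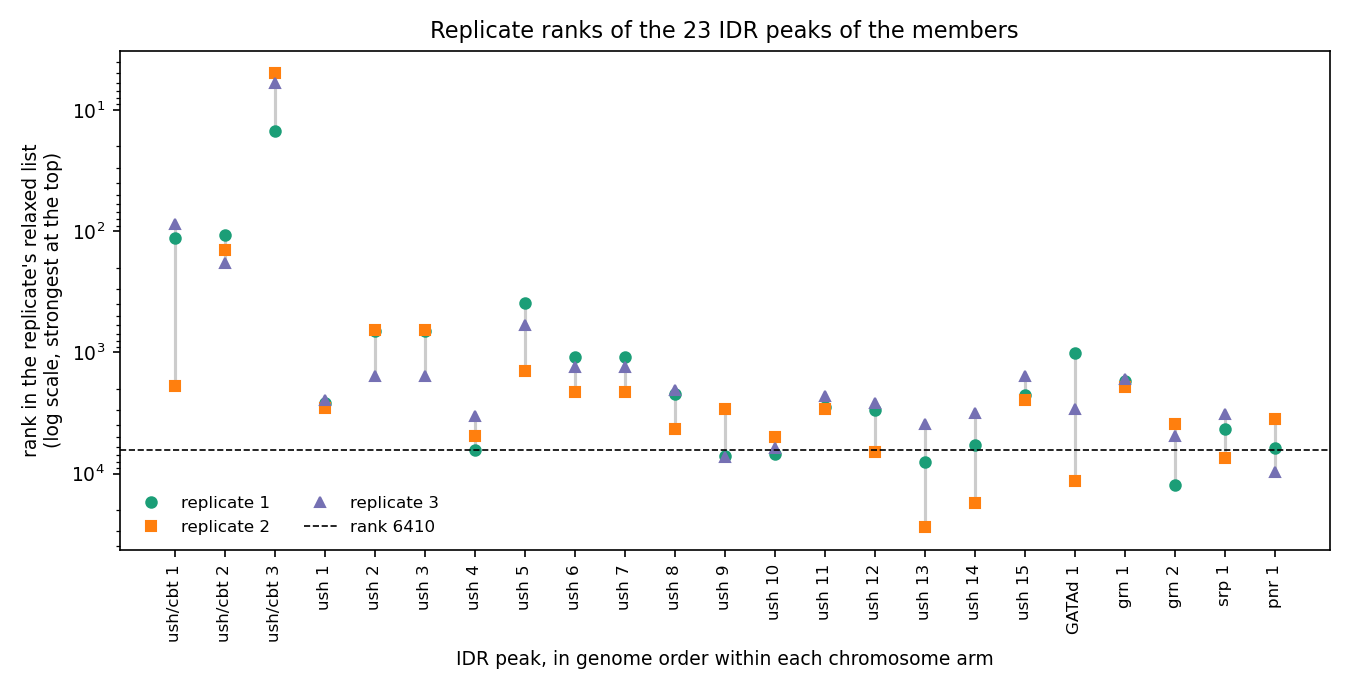
Rank of the strongest overlapping region in each replicate's relaxed list (log scale, strongest at the top) for the 23 IDR peaks of the members, in genome order, with grey bars from lowest to highest. The peak of the ush intron beside cbt is at ranks 15, 5 and 6, and the lowest point, rank 27550 in replicate 2, is at the most downstream ush start; the dashed line marks rank 6410.

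The members' peaks were mostly intronic, and their strength was set by few of them. Summits lay within 500 bp of an annotated start in 4 of 23 peaks, against 37.2% of all IDR peaks, and in an intron away from starts in 16 of 23, against 43.5%. Of the rest, 1 was exonic and 2 intergenic. All 4 start peaks and 13 of the 16 intronic ones lay inside ush, a gene made mostly of introns. Of these start peaks, the one with summit 480030 was near the cbt start. The one with summit 490757 was near the start that ush shares with lncRNA:CR46258. The median signal value was 161 over the 23 peaks and 137 over all IDR peaks, and 4 of the 23 were in the strongest 10% of the list (641 peaks). Those 4 were the 3 peaks beside cbt and the one at the second ush start. The GC content within 50 bp of the summit had a median of 33.7%, from 20.8% at the stronger grn peak to 54.5%, and the median over all IDR peaks was also 33.7%.

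How many of these summits had a GATA motif depended on the window. A motif lay within 50 bp of the summit in 5 of 23 peaks, in 20.8% of all IDR peaks and in 19.0% of the 22032 relaxed regions that overlapped no IDR peak. The 5 were the weaker partner peak at 485866, the peak at the second ush start, those of 168 and 91.7 in later ush introns, and that of srp, the only one with 2 motifs. Within 150 bp of the summit it was 13 of 23, against 46.4% of all IDR peaks, and anywhere in the interval 13 of 23, against 51.1%. The core letters GATA alone, within 50 bp, were at 8 of 23, against 51.2%, so how the members' count stands to all IDR peaks depends on the motif and the window. None of the 3 strong summits beside cbt had the longer motif within 150 bp. Over whole gene windows the motif occurred 32 times at GATAd (3.39 per kb), 186 at ush (2.72), 37 at GATAe (2.64), 79 at grn (2.07), 45 at srp (2.05), 37 at pnr (1.88) and 6 at cbt (0.828). In the orders by motifs per kb and by peaks per kb, cbt is last in one and first in the other, and ush is second in both. A relation between the 2 measures was not tested.

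Other short sequences were counted in the same way on both strands. GAGAG, the core of GAGA-type sites, was found within 50 bp in 4 of 23 summits and in 16.5% of all IDR peaks. The peak at the second ush start had 19 overlapping matches and the distal peak of 238 had 9, in the run of alternating C and T shown above. CACCC, a Krüppel-like factor core, was at 1 of 23 summits against 6.77%, and CACACA at 3 against 8.21%.

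CACGTG, the E-box of the kind that Mondo and its partner bind, was within 50 bp of no member summit and of 0.640% of all IDR summits. Within 150 bp it was found at 3 of 23, against 3.03%. The 3 were the exonic cbt peak, the peak at the cbt start, whose copy is printed above, and the intronic peak of 161 that follows. These neighbouring summits share 1 locus, and a match gives letters in a window, not a bound factor.

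Known partners and targets of these proteins were examined as 6 lists that hold 79 genes matched to the annotation. Of these, 38 had an IDR summit in the gene or within 2 kb. The lists were put together with results of these data known, and their genes differ in length, so the counts stand beside 29.8% of all protein-coding genes and the shares by length above. In each list up to 4 genes with the strongest summit are named, and values in brackets are signal values of that summit.

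Cofactors of Ush and Pnr had a summit in 7 of 9 genes, with a median gene length of 14.6 kb. They were led by the chromatin remodeller Mi-2 (602), the LIM-homeodomain factor tup (399), Ssdp (303), a partner of Chi, and the histone deacetylase HDAC1 (241). Chi, which bridges Pnr to proneural factors, and ap had none. Among targets and partners of Pnr in the notum and heart, 6 of 17 had a summit (median length 5.97 kb), with the BMP ligand dpp (564), the heart homeobox gene tin (496), the tendon gene sr (228) and the T-box gene Doc1 (216) strongest. The proneural genes ac, sc, l(1)sc and ase had none.

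Partners of Srp and blood cell genes had a summit in 7 of 18 (median length 6.22 kb). The strongest were at zfh1 (409), twi (355), PPO3 (299), a prophenoloxidase, and kn (165), a blood cell progenitor factor. Fat body and gut genes of GATA factors had one in 3 of 12 (median length 3.20 kb), at Npc2f (590), fkh (173) and Adh (98.6), and none at the larval serum and yolk protein genes listed.

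Partners of cbt, most of them from sugar sensing and the JNK pathway, had a summit in 9 of 14 (median length 9.18 kb). The JNK phosphatase gene puc had 8 summits, 0.382 per kb, with the strongest at 692. E2f1 had 10 summits (274), Sin3A, a corepressor, had 5 (243) and kay, the fly Fos, had 4 (225). Mondo had none, and its partner bigmax had a summit of 116.

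Of 12 other zinc finger genes listed, of or near the Krüppel-like family, 10 could be matched to the annotation. A summit was found in 6 of the 10 (median length 19.6 kb). bowl had 8 summits, 0.487 per kb, with the strongest at 456, which is denser than cbt. The others named are klu (426), CG42741 (355) and dar1 (233). The strongest summits of CG42741 and twi are 1 peak, at rank 627 of the IDR list, since their annotated windows overlap.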

How the data were processed

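Chromatin from 3 biological replicates of 1 group was immunoprecipitated with an anti-GFP antibody after sonication, per the labels. Per the deposited text files, relaxed lists were made for each replicate and for the pooled replicates against a control, and the IDR list was derived from them. Aligner, peak caller and threshold of the IDR list were not given in the sources used here. Control libraries were not analysed. The signal of each region, which ranks regions within a list, is used as the authors deposited it in the dm6 lists. The 6410 IDR peaks were found to be the strongest pooled regions, with identical values. Most of the members' peaks have the same default width with the summit in the middle, which limits the precision of positions. Lists in dm3 were not used.

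Summits (start plus offset) were placed in genes of Ensembl release 115 (BDGP6), whose spans of the 7 genes equal those of RefSeq, and sequence came from RefSeq. Analyses used Python 3.11.15, matplotlib 3.10.9, pandas 2.3.3, scipy 1.17.1 and numpy 2.4.6, and the counting was tested on simulated data. A replicate supported a peak when at least 1 bp overlapped one of its 6410 strongest regions. No test was run. The members and gene lists were chosen with earlier results of these data known. Named outside the members were up to 4 genes with the strongest summit in each list and the 5 genes of 0.5 to 2 times the span of ush that were closest to it in peaks per kb. The genes with more summits than ush, genes without summits, the distal ush sequence and the GATA gene sequences to print were chosen after their values were seen. Alternatives were other flanks, distances, overlaps, list lengths, motif windows and replicates.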

Additional observations from a re-analysis of the deposited data

How the results depend on the processing

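Of 47 recomputed summary values, 37 stayed within 1.5 times of their main value (counts) or within the replicate spread. Of further values for single genes, 84 stayed and 19 moved. With only the stronger part of the IDR list, the members had 13 IDR summits in place of 23 and ush 11 in place of 18. With starts taken within 250 bp, 2 peaks were at a start in place of 4. With the whole relaxed lists, all 3 replicates supported 23 peaks in place of 14. A GATA motif was found at 13 peaks within 150 bp, 13 in the whole interval and 8 with the core letters alone, in place of 5, where the shares of all IDR peaks were 46.4%, 51.1% and 51.2%, in place of 20.8%. Genes denser than ush numbered 17 among those of at least 20 kb and 471 without flanks, in place of 724. Leaving out 1 replicate at a time, 15 to 18 peaks were supported by all of the others, and the median replicate rank was 2123 to 2884, in place of 2631, with 2123 without replicate 2. It was 2815 with the overlapping region of nearest summit, an alternative chosen after seeing the data. Without flanks, srp and pnr had 0 IDR summits and cbt 1, and with 5 kb flanks cbt had 5. With only the stronger part of the IDR list, srp and pnr also had 0 and grn had 1. No paired analysis was possible because there is only 1 group. Depth is unknown, so ranks near 6410 can shift with it.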
